A study of Homo sapiens with 24 samples.

Results

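The genes described here are 10 members of the AP-1 and early growth response group: the FOS genes FOS, FOSB, FOSL1 and FOSL2, the JUN genes JUN, JUNB and JUND, the early growth response genes EGR1 and EGR3, and IER3. They were chosen by name, as the rows of the gene count table whose Ensembl identifier maps to these symbols, and 10 of the 10 were found among 60668 rows. All 10 had enough counts to be tested, among 22158 genes tested in all. Their expression was read in every group of the study.

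FOS and JUN proteins pair through leucine zippers to form AP-1, a transcription factor that binds short DNA sites near genes of growth, invasion and epithelial differentiation. FOS proteins need a JUN partner to bind DNA, whereas JUN proteins can also pair with each other. EGR1 and EGR3 are zinc-finger factors. Transcription of FOS and EGR1 is a textbook output of the ERK branch of the MAP kinases, which act through SRF and its ternary complex partners. In mammary epithelium, FOSL1 is known as a FOS family member linked with motile and basal-like cells, and JUND as a JUN member linked with resting cells.

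RNA was sequenced from MCF-10A, an immortalised and non-tumorigenic line of human mammary epithelial cells, grown in 3D on Matrigel. The parental line was compared with MCF-10A MYC-ER, which carries a MYC fusion switched on by a ligand, 4-hydroxytamoxifen (4-OHT), through its oestrogen receptor part. Each line received 1 µM 4-OHT for 0, 8, 24 or 48 h, with 3 replicates per group and 24 libraries. Treatment began from day 3 and every culture was collected on day 5, so the groups share the same culture age and differ in how long 4-OHT was present. The labels do not say whether the 0 h wells received a vehicle, which promoter drives the fusion, whether the line is 1 clone, or whether the replicates are more than wells of the same plating. The p-values below therefore rest on the spread between these libraries, which may be technical. That spread was pooled for each gene over all groups, so a p-value does not reflect the spread of any single group.

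Library totals ran from 136860029 to 182438505 counts, a 1.33-fold range. The MYC row stood at 387 CPM (counts divided by the TMM-scaled library size and multiplied by 1e6) in MYC-ER cells without 4-OHT. It was at 795 (8 h), 321 (24 h) and 248 (48 h) later, and between 463 and 532 in the parental groups. Reads of the fusion may count on this row and cannot be told apart from those of the endogenous gene. All 8 basal mammary markers were detected in every library, KRT5 at 6763 to 14120 CPM. Of the 4 endothelial markers, CDH5 was at 0 in 24 of 24 libraries, while PECAM1 was at 0.0464 to 2.32 CPM in every library and TEK reached 1.92, with a summed list of 0.0928 to 2.99 CPM. In the blood cell list CD3E was at 0 in every library and CD14 at 2.87 to 9.03 CPM. Of the 7 fibroblast markers, COL1A2, COL3A1 and PDGFRA never passed 0.0618 CPM. COL1A1 (53.6 to 220.4 CPM) and DCN (21.0 to 157 CPM) were present, and the summed list was highest in MYC-ER cells at 0 h (369.6 to 376.9 CPM, against 77.3 to 133 elsewhere). Every pair of replicates differed by more than sampling noise, and the parental 0 h replicates differed most from each other, with a chi-square per degree of freedom of 173 to 285 against 8.93 to 68.8 in the other groups.

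Promoter windows of RefSeq (build GRCh38.p14) held an entry for 7 of the 10 genes. The 250 bases before the RefSeq start are printed for 5 of them. They were chosen because their transcripts moved in different directions at 8 h in MYC-ER cells: EGR1, FOS and FOSB rose, FOSL2 and JUN fell. The gene positions given further below come from GENCODE, whose starts can differ from those of RefSeq. By those positions the JUN and FOSL2 windows lie inside the gene, and the FOS window runs past the gene start. Capitals mark matches, on either strand, to the CArG box (the SRF site), to TGACGT, the core of the cyclic AMP response element (ACGTCA when read on the opposite strand), and to TGACATCA, the variant AP-1 site known from the JUN promoter.
EGR1, chr5:138465229-138465478, plus strand: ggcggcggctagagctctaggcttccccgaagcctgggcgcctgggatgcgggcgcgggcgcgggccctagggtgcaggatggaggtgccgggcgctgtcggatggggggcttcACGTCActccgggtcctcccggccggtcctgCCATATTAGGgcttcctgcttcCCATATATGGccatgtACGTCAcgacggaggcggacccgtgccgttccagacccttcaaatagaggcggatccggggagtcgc
FOS, chr14:75278578-75278827, plus strand: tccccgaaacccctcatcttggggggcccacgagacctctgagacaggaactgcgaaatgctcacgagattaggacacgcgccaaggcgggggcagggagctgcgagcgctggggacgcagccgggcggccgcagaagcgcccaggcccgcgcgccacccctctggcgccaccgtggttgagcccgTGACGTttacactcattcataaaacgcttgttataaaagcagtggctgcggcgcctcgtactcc
FOSB, chr19:45467746-45467995, plus strand: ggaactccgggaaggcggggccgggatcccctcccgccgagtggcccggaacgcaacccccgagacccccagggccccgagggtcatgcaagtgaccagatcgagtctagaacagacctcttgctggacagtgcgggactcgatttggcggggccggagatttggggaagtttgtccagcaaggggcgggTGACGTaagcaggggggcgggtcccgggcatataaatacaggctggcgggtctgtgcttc
FOSL2, chr2:28392608-28392857, plus strand: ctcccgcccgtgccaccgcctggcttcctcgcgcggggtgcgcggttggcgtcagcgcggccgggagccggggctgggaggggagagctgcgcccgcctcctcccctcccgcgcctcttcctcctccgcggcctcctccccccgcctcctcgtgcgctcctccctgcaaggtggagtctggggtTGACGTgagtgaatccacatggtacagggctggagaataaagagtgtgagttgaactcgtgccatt
JUN, chr1:58784048-58784297, minus strand: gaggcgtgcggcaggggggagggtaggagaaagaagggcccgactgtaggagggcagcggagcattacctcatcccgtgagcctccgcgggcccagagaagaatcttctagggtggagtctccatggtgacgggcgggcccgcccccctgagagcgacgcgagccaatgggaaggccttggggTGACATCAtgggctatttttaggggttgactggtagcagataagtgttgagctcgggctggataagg

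The EGR1 window held 2 CArG boxes, whose first bases lie 105 and 83 bases before the RefSeq start, and 2 TGACGT matches at 136 and 67. FOS, FOSB and FOSL2 each held 1 TGACGT, at 64, 60 and 66 bases before the RefSeq start. The FOS window held no CArG box. JUN held TGACATCA at 67. JUND, not printed, held TGACGT at 200, 198 and 87, the first pair being both strands of 1 TGACGTCA, and JUNB held no match to any motif searched. Over all 35116 windows of this length, 1.16% held a CArG box, 7.10% TGACGT, 1.65% TGACGTCA, which contains TGACGT, and 2.37% TGACATCA. A form of the AP-1 site that allows any middle base, TGANTCA, and the MYC site, CACGTG, stood in 6.57% and 6.34% of windows. Neither stood in any of the 7 searched here. A match is a description of the letters and no evidence of binding. Sequence outside these windows was not searched, so a motif missing from a window may still lie further upstream, including a CArG box of FOS.

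Before 4-OHT, MYC-ER cells had less of 7 members than parental cells and more of FOSL2, and at 8 h these differences were smaller. In MYC-ER cells at 8 h, EGR1, FOSL1 and IER3 stood 12.0, 13.4 and 26.1 times above 0 h. FOS, FOSB and EGR3 stood between 3.07 and 4.25 times above, while FOSL2 fell 2.75-fold and JUND 1.98-fold. By 24 h FOS had fallen below its 0 h level, FOSL1 and IER3 stood 1.56 and 4.56 times above theirs and EGR1 5.98 times, and FOSB was still 3.26 times above. In parental cells, EGR1 stood above the MYC-ER level at every time and FOSL2 below it. FOS, IER3, EGR3, EGR1 and FOSL1 were also called higher in parental cells at 8 h, at 1.28 to 1.87 times their 0 h levels. The calls of EGR3 and FOSL1 there were lost with only the groups compared in the fit.

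In counts, 10 of 10 members passed an adjusted p of 0.05 in edgeR's quasi-likelihood test at 8 h in MYC-ER cells (7 higher, 3 lower), where 67.6% of all genes tested did (32.2% higher, 35.4% lower). At 24 h 7 passed (4 higher, 3 lower) against 61.6% of all genes (30.4% higher, 31.2% lower), and at 48 h 7 (4 higher, 3 lower) against 44.1% (23.4% and 20.7%). These 3 comparisons share the 0 h libraries. From 8 to 24 h, 8 members changed (2 higher, 6 lower) against 55.5% of all genes (28.4% and 27.1%), and from 24 to 48 h 6 (3 higher, 3 lower) against 53.7% (28.2% and 25.5%). In parental cells 7 passed at 8 h (5 higher, 2 lower), where 31% of all genes did (15% and 16%). The parental count was 5 at 24 h (3 higher, 2 lower) beside 42.9% (21.2% and 21.7%), and 5 at 48 h (2 higher, 3 lower) beside 40.5% (20.4% and 20.1%). With only the groups compared in the fit, the parental count at 8 h was 3 in place of 7, and at 24 h 3 in place of 5. The 24 h count was also 3 without parental 24 h replicate 1 or replicate 3. The median log2 change of the members was 1.65 in MYC-ER cells at 8 h, beside -0.10 for all genes tested, and 0.30 in parental cells, beside 0.00 for all genes. Many genes of any kind were called in each comparison, so the count of members called says little by itself, and the sizes of their changes are given below.

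**Figure D1:**
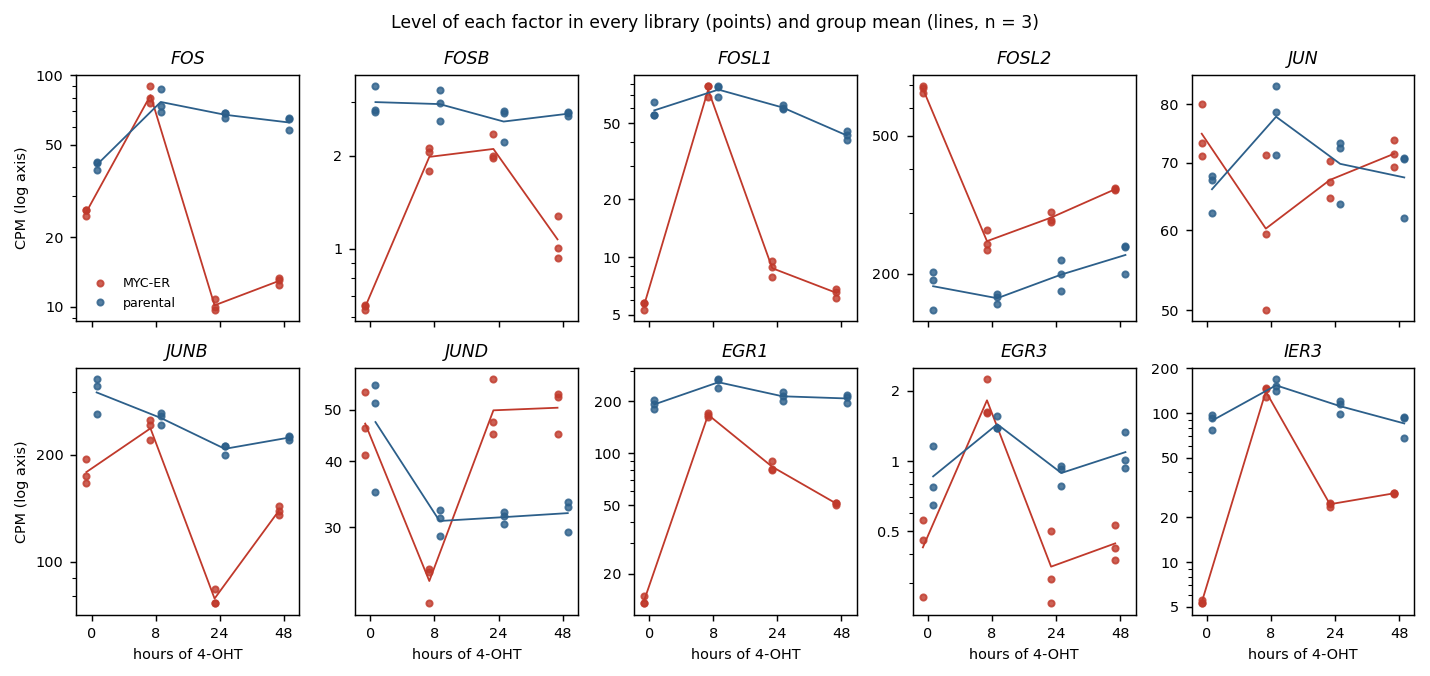
Level of each factor in CPM (log axis) in every library (points, n = 3 per group) against hours of 4-OHT (times drawn evenly spaced), with lines through the group means, MYC-ER in red and parental in blue. EGR1, FOSL1 and IER3 of MYC-ER cells start at 13.9, 5.59 and 5.37 CPM, meet or approach the parental level at 8 h and fall again, while FOSL2 starts at 683 CPM and falls.

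FOS (ENSG00000170345, chr14:75278774-75282230, plus strand) is the founding FOS gene and encodes a protein of short life. MYC-ER cells had 26.2, 24.6 and 26.3 CPM without 4-OHT, then 80.0, 75.7 and 90.1 (8 h), 10.8, 9.98 and 9.72 (24 h) and 12.5, 13.0 and 13.3 (48 h). No library of any of these times overlapped with another time. The log2 change from 0 h was 1.67 after 8 h (SE 0.077, adjusted p = 2.16e-14), -1.34 after 24 h (SE 0.078, adjusted p = 1.52e-12) and -0.99 after 48 h (SE 0.077, adjusted p = 6.49e-10). FOS thus rose 3.19-fold and then stood 2.53-fold below its starting level. Parental cells had 39.0, 41.8 and 42.2 CPM at 0 h and 73.7, 69.1 and 87.2 at 8 h, then 65.5 to 68.7 at 24 h and 57.8 to 65.3 at 48 h. Here FOS rose at each time, by 0.90, 0.72 and 0.61 on the log2 scale (adjusted p at most 7.44e-06). The 24 h change in MYC-ER cells minus that in parental cells was -2.06 (SE 0.11, adjusted p = 6.16e-13), so the direction at 24 h was opposite in the lines.

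FOSL1 (FRA1, ENSG00000175592, chr11:65892049-65900573, minus strand) is a FOS gene that is itself a known AP-1 target and whose protein is stabilised by ERK. In MYC-ER cells it had 5.74, 5.74 and 5.30 CPM without 4-OHT, then 78.0, 68.4 and 78.4 (8 h), 9.54, 7.87 and 8.83 (24 h) and 6.60, 6.10 and 6.81 (48 h). The 8 h libraries stood far above all others of the line. The change was 3.74 after 8 h (SE 0.087, adjusted p = 3.09e-19) and 0.65 after 24 h (SE 0.081, adjusted p = 4.57e-07). At 48 h it was 0.22 (adjusted p = 0.0359), a call that was lost in 7 of the 33 alternatives, 5 of which left out a MYC-ER 0 h or 48 h library. Parental cells had 55.1, 55.3 and 64.9 CPM without 4-OHT, then 68.8 to 78.6 (8 h), 59.1 to 62.5 (24 h) and 41.0 to 45.5 (48 h). At 8 h the lines overlapped fully, with a log2 difference of -0.002 (SE 0.076). The parental fall at 48 h, -0.43 (adjusted p = 0.000142), was 0.022 (adjusted p = 0.884) once each library's GC and length trends were removed, and the 24 h value went from 0.050 to 0.51 (adjusted p = 6.55e-05). At 8 h the parental rise was 0.36 (SE 0.076, adjusted p = 0.00129), and 0.655 (adjusted p = 4.81e-06) with those trends removed. That rise was not called with only the groups compared (adjusted p = 0.0628).

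FOSB (ENSG00000125740, chr19:45467995-45475179, plus strand), which encodes a full-length and a shortened FOS protein, was the least abundant FOS gene, at 109 to 592 counts per library. MYC-ER cells had 0.632, 0.658 and 0.648 CPM without 4-OHT, then 2.05, 1.79 and 2.12 (8 h), 1.97, 2.35 and 2.01 (24 h) and 1.28, 0.931 and 1.01 (48 h). Its rise of 1.62 after 8 h (SE 0.14, adjusted p = 1.05e-09) was still 1.70 after 24 h (SE 0.14, adjusted p = 5.55e-10), when FOS and FOSL1 had dropped, and 0.73 after 48 h (adjusted p = 0.000191). From 8 to 24 h its own change was 0.086 (SE 0.13, adjusted p = 0.619), and 0.32 (adjusted p = 0.0497) with GC and length trends removed. The parental libraries lay between 2.21 and 3.38 CPM with no call at any time. FOSB overlaps ERCC1 on the opposite strand, and since strand use in counting is not given, reads of the pair may be mixed.

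FOSL2 (FRA2, ENSG00000075426, chr2:28392448-28417312, plus strand) ran the other way. MYC-ER cells had 697, 688 and 664 CPM without 4-OHT, then 244, 234 and 268 (8 h), 302, 287 and 283 (24 h) and 348, 354 and 351 (48 h). No 0 h library overlapped with a later one. The change was -1.46 after 8 h (SE 0.087, adjusted p = 1.96e-12), -1.23 after 24 h (SE 0.087, adjusted p = 4.01e-11) and -0.96 after 48 h (SE 0.086, adjusted p = 6.64e-09). The 3 values of each parental group fell within 158 to 203 CPM without 4-OHT, then 164 to 175 (8 h), 178 to 220 (24 h) and 200.2 to 241 (48 h). Only the last differed from 0 h, by 0.30 (adjusted p = 0.00769, and 0.117 with only the groups compared). FOSL2 overlaps FOSL2-AS1 on the opposite strand and a further annotated gene, so its counts are uncertain in the same way.

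Levels were divided by the length of all annotated exons of a gene merged, and shares and sums depend on this choice. For FOS the merged exons hold 3238 bases and the longest transcript 2158, and for FOSL2 7157 and 6708. On this scale FOSL2 made up 89.7% ± 0.28 (SD, n = 3) of the summed FOS family level in MYC-ER cells without 4-OHT. By 8 h its share was 34.7% ± 0.72, with FOSL1 at 39.7% ± 1.3 and FOS at 25.3% ± 0.67. It was 83.3% ± 0.56 at 24 h and 86.5% ± 0.41 at 48 h. Among parental groups FOSL2 held 27.2% to 42.5% and FOSL1 30.9% to 45.3% of the family at every time, as group means. The summed level in MYC-ER cells was 106.5 ± 2.44 CPM per kb at 0 h and 100.1 ± 7.30 at 8 h. The family thus changed in make-up. The move of its sum was below the replicate SD at 8 h but above that at 0 h, and was not tested. At 24 h the sum was 48.8 ± 1.94. FOSB never exceeded 0.886% of the sum in any library.

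**Figure D2:**
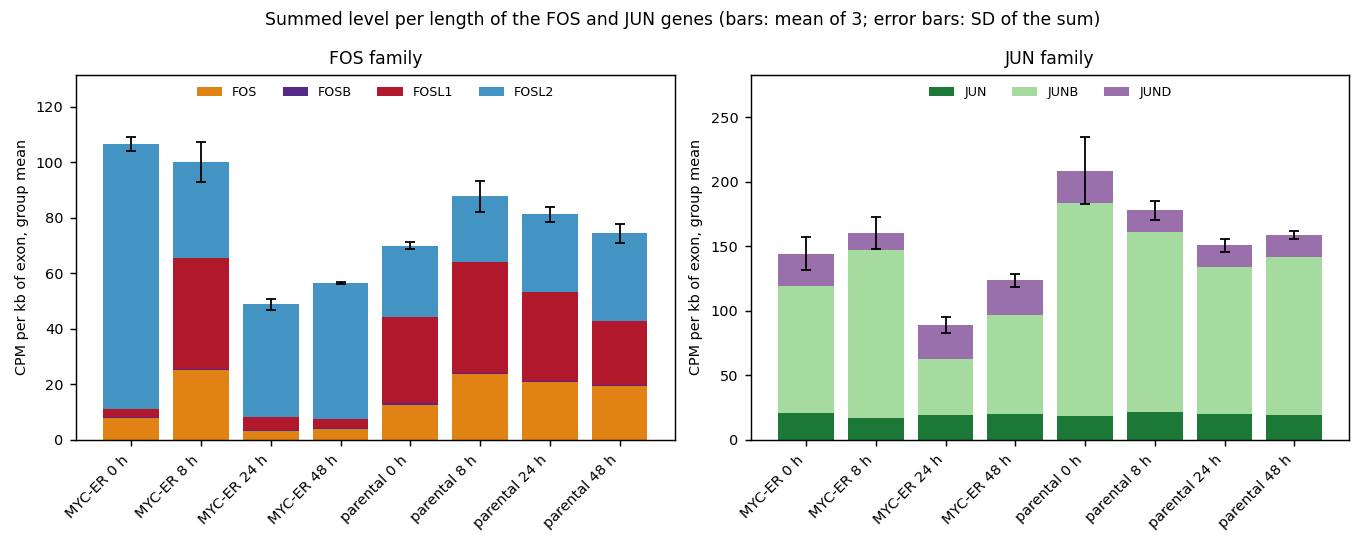
Summed level in CPM per kb of exon of the FOS genes (left) and the JUN genes (right) in each of the 8 groups. Bars stack the group means (n = 3) and error bars are the SD of the sum. FOSL2 fills most of the MYC-ER bars at 0, 24 and 48 h, but 34.7% of the bar at 8 h, and JUNB fills most of each JUN bar except at 24 h in MYC-ER cells (48.6%).

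JUN (ENSG00000177606, chr1:58780788-58784327, minus strand), the strongest activator among the JUN proteins, was the flattest member, with group means between 60.2 and 77.7 CPM (1.29-fold). MYC-ER cells had 80.1, 71.1 and 73.2 CPM at 0 h and 59.5, 50.1 and 71.2 at 8 h, and these groups overlapped. The change of -0.31 after 8 h (SE 0.093, adjusted p = 0.00557) was -0.19 (adjusted p = 0.0574) without MYC-ER 8 h replicate 2. Later MYC-ER libraries lay between 64.7 and 73.7 CPM, with no call against 0 h. The parental libraries lay between 61.7 and 83.4 CPM. Their 8 h change of 0.24 (SE 0.093, adjusted p = 0.0572) missed the threshold and passed it in 6 of the 9 alternatives that kept all libraries. With GC and length trends removed the later parental values were also called, at 0.27 (adjusted p = 0.0105) and 0.24 (adjusted p = 0.0271), as was the MYC-ER change from 8 to 24 h (0.38, adjusted p = 0.000263).

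JUNB (ENSG00000171223, chr19:12791496-12793315, plus strand) encodes a JUN protein that activates less strongly than JUN and can restrain it. MYC-ER cells had 195, 167 and 174 CPM without 4-OHT, then 242, 219 and 249 (8 h), 83.5, 76.3 and 76.3 (24 h) and 143, 139 and 135 (48 h). The 4 times did not overlap. The change was 0.41 after 8 h (SE 0.072, adjusted p = 3.6e-05), -1.18 after 24 h (SE 0.073, adjusted p = 4.74e-12) and -0.36 after 48 h (SE 0.072, adjusted p = 0.00029). Parental cells had 312, 259 and 326 CPM without 4-OHT, then 243 to 261 (8 h), 199.7 to 212 (24 h) and 219 to 226 (48 h). Their falls of -0.24, -0.53 and -0.42 passed the threshold, but were 0.12, 0.02 and 0.10, with no call, when each library's GC and length trends were removed. The 8 h fall was also not called with only the groups compared (adjusted p = 0.152). It was lost without parental 0 h replicate 1 or 3 or parental 8 h replicate 2 (adjusted p up to 0.125). JUNB overlaps HOOK2 on the opposite strand.

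JUND (ENSG00000130522, chr19:18279760-18281622, minus strand) is the JUN gene usually transcribed in resting cells. MYC-ER cells had 53.9, 41.1 and 46.2 CPM at 0 h and 24.7, 21.6 and 25.01 at 8 h, then 45.1 to 57.1 at 24 h and 44.95 to 53.6 at 48 h. The 8 h libraries lay below all others of the line, with a change of -0.99 (SE 0.13, adjusted p = 8.6e-07). The later changes were 0.083 (adjusted p = 0.603) and 0.099 (adjusted p = 0.58). In parental cells the 0 h libraries ranged widely, at 51.5, 34.96 and 55.7 CPM, and the 9 later ones lay between 28.9 and 33.5. The parental changes of -0.62, -0.60 and -0.57 all passed the threshold. At 8 h the parental change was not called with only the groups compared (-0.62, adjusted p = 0.0583). With GC and length trends removed the parental changes were -0.18 (adjusted p = 0.0458), 0.07 (adjusted p = 0.426) and 0.06 (adjusted p = 0.517). With those trends removed JUND was also called in MYC-ER cells at 24 h (0.18, adjusted p = 0.0204) and 48 h (0.23, adjusted p = 0.0048).

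The JUN family sum was 144.5 ± 12.8 CPM per kb (SD, n = 3) in MYC-ER cells without 4-OHT, then 160.0 ± 12.5 (8 h), 89.0 ± 6.43 (24 h) and 123.5 ± 5.23 (48 h). JUNB made up 67.9%, 81.4%, 48.6% and 61.8% of it and JUND 17.4%, 7.97%, 30.0% and 21.9%. In parental cells the sum was 208.4 ± 26.0 at 0 h and 150.6 to 177.8 later, with JUNB at 75.7% to 78.9% of it at every time.

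EGR1 (ENSG00000120738, chr5:138465490-138469315, plus strand) had 14.8, 13.5 and 13.5 CPM in MYC-ER cells without 4-OHT, then 166, 163 and 172 (8 h), 89.8, 79.7 and 80.5 (24 h) and 51.6, 51.5 and 49.8 (48 h). The levels fell in steps after 8 h without overlap and stayed above 0 h. The change from 0 h was 3.58 after 8 h (SE 0.070, adjusted p = 2.38e-20), 2.58 after 24 h (SE 0.067, adjusted p = 1.34e-18) and 1.87 after 48 h (SE 0.065, adjusted p = 9e-16). Parental cells had 192, 202 and 181 CPM without 4-OHT, then 240 to 268 (8 h), 200.3 to 227 (24 h) and 195 to 217 (48 h). The parental 8 h rise of 0.43 (SE 0.062, adjusted p = 4.1e-05) was the clearest of that line's changes in EGR1. The 24 h value, 0.16 (adjusted p = 0.0475), was lost in 19 of the 33 alternatives, and the 48 h value was 0.12 (adjusted p = 0.156). With GC and length trends removed they were 0.35 (adjusted p = 0.000461) and 0.31 (adjusted p = 0.00144), and the 48 h value was also called under library size alone (0.17, adjusted p = 0.0347).

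EGR3 (ENSG00000179388, chr8:22687659-22693302, minus strand), a relative of EGR1 that binds the same sites, was rare, at 39 to 310 counts per library. MYC-ER cells had 0.458, 0.561 and 0.263 CPM without 4-OHT, then 2.24, 1.60 and 1.62 (8 h), 0.314, 0.246 and 0.4999 (24 h) and 0.427, 0.377 and 0.530 (48 h). It rose at 8 h by 2.09 (SE 0.28, adjusted p = 8.74e-07), and the 24 and 48 h libraries overlapped those of 0 h. Parental cells had 0.773, 1.16 and 0.648 CPM at 0 h and 1.56, 1.38 and 1.38 at 8 h. That change of 0.74 (adjusted p = 0.0398) was lost when any of 5 libraries was left out: parental 0 h replicate 1 or 3, or any parental 8 h replicate (adjusted p up to 0.177). A gene without a symbol overlaps EGR3 on the opposite strand.

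IER3 (IEX-1, ENSG00000137331, chr6:30743199-30744554, minus strand), an immediate early gene whose protein affects cell survival and is an ERK substrate, had the largest change of the 10. MYC-ER cells had 5.28, 5.29 and 5.52 CPM without 4-OHT, then 147, 128 and 144 (8 h), 25.1, 24.7 and 23.6 (24 h) and 28.7, 28.9 and 29.3 (48 h). The change was 4.70 after 8 h (SE 0.12, adjusted p = 2.34e-18), 2.19 after 24 h (SE 0.11, adjusted p = 2.23e-13) and 2.43 after 48 h (SE 0.11, adjusted p = 1.44e-13). Parental cells had 92.4, 77.1 and 97.5 CPM without 4-OHT, then 141 to 169 (8 h), 99.2 to 121 (24 h) and 67.8 to 94.6 (48 h). IER3 rose there by 0.79 after 8 h (SE 0.10, adjusted p = 1.56e-05). The 24 h value of 0.32 (adjusted p = 0.0155) was lost without parental 0 h replicate 2 or parental 24 h replicate 1 or 3, with only the groups compared (adjusted p = 0.0691) and with upper-quartile scaling (adjusted p = 0.0673). At 48 h it was -0.061 (adjusted p = 0.697), and with GC and length trends removed the 24 and 48 h values were 0.78 (adjusted p = 7.82e-07) and 0.41 (adjusted p = 0.00104). IER3-AS1 overlaps it on the opposite strand.

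**Figure D3:**
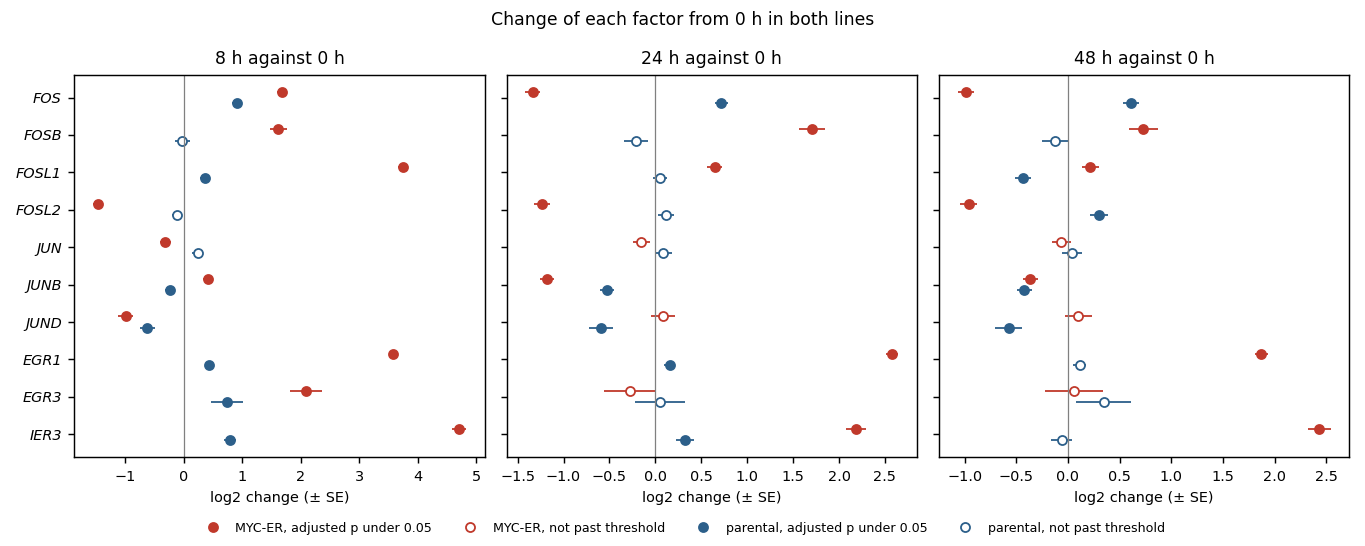
Log2 change from 0 h (± SE) of each factor in MYC-ER (red) and parental (blue) cells at 8, 24 and 48 h. Filled points passed an adjusted p of 0.05. At 8 h the red points run from -1.46 (FOSL2) to 4.70 (IER3), and the blue points from -0.62 to 0.90.

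The direct comparison of the lines shows where each member stood. At 0 h 8 of the 10 differed (1 higher, 7 lower in MYC-ER), where 64.3% of all genes did (31.6% higher, 32.7% lower). IER3 was 16.6-fold lower (log2 difference -4.05, SE 0.12, adjusted p = 1.77e-17), EGR1 13.8-fold (-3.78, SE 0.070, adjusted p = 5.49e-21) and FOSL1 10.4-fold (-3.39, SE 0.085, adjusted p = 1.02e-18). FOSB, EGR3, JUNB and FOS were lower by 4.63-, 2.01-, 1.68- and 1.59-fold, and FOSL2 was 3.71-fold higher (1.89, SE 0.088, adjusted p = 4.14e-14). JUN (0.18, adjusted p = 0.0923) and JUND (-0.010, adjusted p = 0.958) were not called. With GC and length trends removed they were, at 0.40 (adjusted p = 0.00013) and 0.51 (adjusted p = 3.43e-07), and the differences of JUNB and FOS were -0.23 in place of -0.75 and -0.36 in place of -0.67, both still called. In bulk libraries, fewer cells with a transcript and less of it per cell cannot be told apart. Mitochondrial transcripts held 9.24% to 9.71% of the counts in the MYC-ER 0 h libraries and 3.86% to 7.78% in all others, and the part of this in the line difference was not tested.

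At 8 h 5 of 10 members differed between the lines (1 higher, 4 lower), which is the background share, 48.6% of all genes (23.1% and 25.5%). FOS, FOSL1, JUNB, EGR3 and IER3 were not called, with log2 differences of 0.10 (SE 0.075), -0.002 (SE 0.076), -0.10 (SE 0.072), 0.34 (SE 0.26) and -0.14 (SE 0.10). FOS was called, at 0.20 (adjusted p = 0.0282), without parental 8 h replicate 3. EGR1 remained 1.54-fold lower and FOSB 1.48-fold lower, and FOSL2 was 1.46-fold higher. JUN was lower by 0.37 (adjusted p = 0.0024) and JUND by 0.38 (adjusted p = 0.0217), the latter not called without MYC-ER 8 h replicate 2 or parental 8 h replicate 2 or 3. At 24 h 8 differed (2 higher, 6 lower), beside 49.4% of all genes (23.5% and 25.8%), with FOSL1 6.92-fold, FOS 6.64-fold and IER3 4.55-fold lower in MYC-ER cells. At 48 h 9 differed (2 higher, 7 lower), beside 56.7% (27.3% and 29.4%), with FOSL1 6.65-fold, FOS 4.83-fold and EGR1 4.07-fold lower. JUND was higher in MYC-ER cells at both times, 1.59-fold and 1.58-fold, as was FOSL2.

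Ordered by group mean, EGR1 was lowest in MYC-ER cells at 0 h and highest in parental cells at 8 h, 18.5-fold apart, and all 4 parental groups lay above all 4 MYC-ER groups. For IER3 the same ends were 28.7-fold apart, and the ranges of parental and MYC-ER cells at 8 h overlapped at the top. FOSL1 spanned 13.4-fold, with the pair of 8 h groups overlapping at the top. FOS spanned 8.05-fold, with its highest mean in MYC-ER cells at 8 h (81.9 CPM, overlapping parental 8 h) and its lowest in the same line at 24 h (10.2 CPM). Neighbours in the order of JUN overlapped at every step. FOSL2 in MYC-ER cells did not overlap between times, while its lowest MYC-ER group, at 8 h, overlapped the highest parental group.

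The response of the lines differed for 9 of 10 members at 8 h (line by time interaction, 7 positive and 2 negative), beside 55.2% of all genes (27.3% positive, 27.8% negative). It differed for 8 members by 24 h (5 and 3), beside 54.5% (27.7% and 26.8%), and for 7 by 48 h (5 and 2), beside 45% (23.6% and 21.4%). At 8 h the interaction was 3.91 (SE 0.16, adjusted p = 7.84e-15) for IER3, 3.38 (SE 0.11, adjusted p = 4.82e-16) for FOSL1 and 3.15 (SE 0.091, adjusted p = 5.93e-17) for EGR1, and -1.34 (SE 0.12, adjusted p = 4.18e-09) for FOSL2. In these 4 genes the lines differed at least 3.71-fold without 4-OHT and at most 1.54-fold after 8 h of it. The parental changes correlated with GC content across 9784 genes, which are not independent replicates (Spearman's rho -0.621, -0.657 and -0.652 at 8, 24 and 48 h, against 0.017, -0.063 and 0.026 in MYC-ER cells). With GC and length trends removed, the interactions of JUNB at 8 h (0.65 to 0.16, adjusted p = 0.0503) and of FOSL1 (0.12 and 0.17) and JUND (0.10 and 0.17) at 24 and 48 h lost their calls. JUND at 8 h (-0.86, adjusted p = 3.65e-08), JUN at 24 h (-0.32, adjusted p = 0.0179) and JUNB at 48 h (-0.43, adjusted p = 2.9e-05) gained one. IER3, FOSL1, EGR1 and FOSL2 kept theirs at 8 h.

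Other genes of the pathway were read from lists chosen with earlier results of these data known. Of 17 textbook AP-1 target genes, 16 were higher and 0 lower in MYC-ER cells at 8 h, with a median log2 change of 3.16 beside -0.10 for all genes, of which 67.6% were called (32.2% higher). The remaining gene was MMP13, at 0 to 6 counts per library at 0 h and 0 at 8 h. At 24 h 12 were higher and 1 lower (median 1.16; 61.6% of all genes called), and at 48 h 13 and 0 (median 0.98; 44.1%). The rule for naming picked MMP3, a matrix metalloproteinase, with 0 to 2 counts per library at 0 h and 412 to 492 at 8 h (3.11 ± 0.18 CPM, SD, n = 3). In parental cells at 8 h, 10 of the 17 were higher and 2 lower (median 0.76), beside 31% of all genes called. The parental counts were 10 and 2 at 24 h (median 0.48; 42.9% of all genes called) and 5 and 3 at 48 h (median -0.07; 40.5%). Before 4-OHT, MYC-ER cells had 15 of the 17 below the parental level and 0 above it, with a median difference of -3.00, beside 64.3% of all genes called (32.7% lower). After 8 h of 4-OHT, 8 of the 17 were higher than in parental cells and 5 lower (median 0.14), beside 48.6% of all genes called. At 24 h 3 were higher and 13 lower (median -1.61), beside 49.4%, and at 48 h 2 and 14 (median -2.08), beside 56.7%.

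Of 18 other immediate early genes, 12 were higher and 3 lower at 8 h in MYC-ER cells (median 1.24), beside 67.6% of all genes called (32.2% higher) and a median of -0.10. EGR4, an early growth response gene, rose by 4.26 (SE 0.29, adjusted p = 2.08e-11) from 0.127 ± 0.063 to 2.44 ± 0.17 CPM (SD, n = 3). KLF4, a Krüppel-like factor of epithelial differentiation, fell by 1.97 (SE 0.070, adjusted p = 2.62e-16) from 38.7 ± 2.04 to 9.87 ± 0.354 CPM. In parental cells 7 were higher and 1 lower (median 0.15), beside 31% of all genes. Before 4-OHT 13 of the 18 were lower in MYC-ER cells and 1 higher, KLF4, beside 64.3% of all genes called (32.7% lower).

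Among 11 tested partners of FOS and JUN from other leucine-zipper families, 3 were higher and 8 lower at 8 h (median -0.56), beside 67.6% of all genes called (35.4% lower) and a median of -0.10. BATF3 rose by 5.71 (SE 0.19, adjusted p = 1.02e-16) from 0.139 ± 0.037 to 7.27 ± 0.35 CPM (SD, n = 3), and stood at 8.93 CPM at 24 h. MAF fell by 5.16 (SE 0.16, adjusted p = 2.88e-17) from 24.4 ± 1.26 to 0.678 ± 0.17 CPM. Before 4-OHT 8 of the 11 were higher in MYC-ER than in parental cells and 2 lower, beside 64.3% of all genes called (31.6% higher). The summed list was at 832 to 906 CPM in the MYC-ER 0 h libraries and 234 to 418 in all others.

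**Figure D4:**
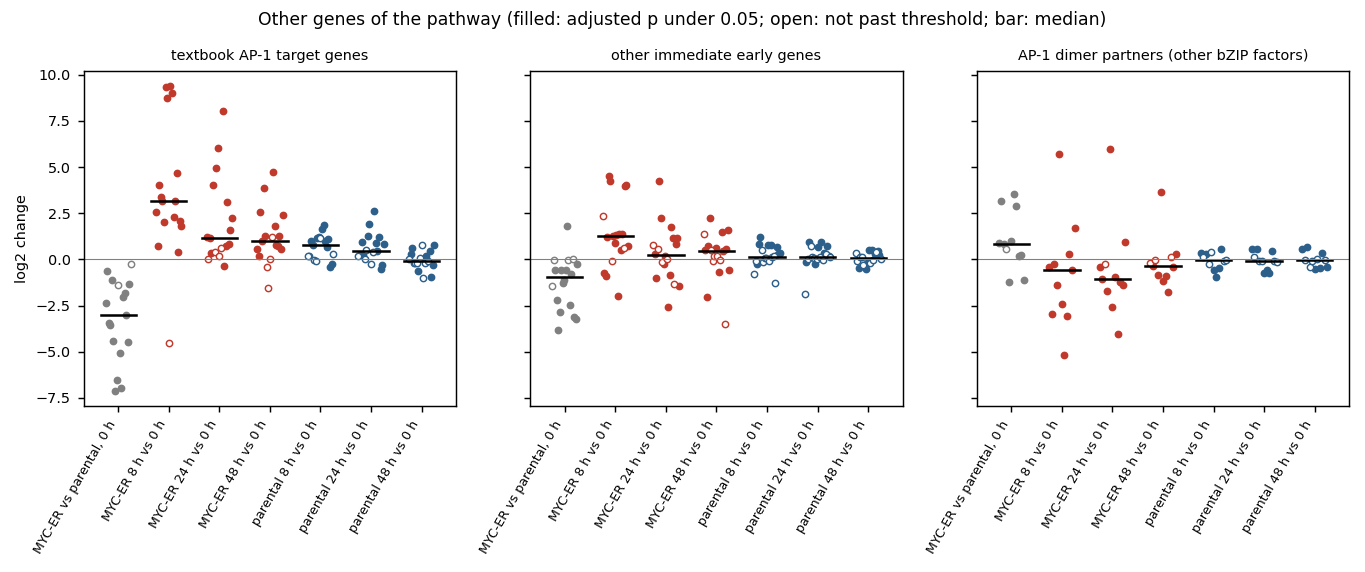
Log2 change of each gene of 3 lists (points; filled where the adjusted p was under 0.05) in 7 comparisons, with the list median as a bar. Red is MYC-ER against its 0 h, blue parental against its 0 h, and grey MYC-ER against parental at 0 h. The AP-1 targets have medians of -3.00 in grey, 3.16, 1.16 and 0.98 in red, and 0.76, 0.48 and -0.07 in blue.

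Upstream genes moved in both directions. Of 8 genes for SRF, its partners and the NAB corepressors of EGR proteins, 4 were higher and 3 lower at 8 h in MYC-ER cells (median 0.29), beside 67.6% of all genes called. ELK3, a ternary complex factor, rose by 1.63 (SE 0.082, adjusted p = 1.1e-13) to 117 ± 4.91 CPM, and the SRF coactivator gene MRTFA fell by 1.00 (SE 0.056, adjusted p = 5.47e-13) to 37.9 ± 1.19 CPM. Of 12 MAP kinase pathway genes, 7 were higher and 3 lower (median 0.25), beside the same 67.6%. MAP2K1, the MEK1 kinase gene, rose by 1.90 (SE 0.075, adjusted p = 1.56e-15) from 60.6 ± 1.93 to 226 ± 3.14 CPM (SD, n = 3), and RPS6KA5 fell by 1.39 (SE 0.12, adjusted p = 6.8e-10). Transcript levels do not give kinase activity. At 24 h in MYC-ER cells 1 of the 12 was higher, MAP2K1, and 5 were lower, beside 61.6% of all genes called. In parental cells 7 of the 12 were higher and 2 lower at 8 h (median 0.19), beside 31% of all genes. The parental counts at 24 h were 8 and 2 (median 0.36), beside 42.9%. Of the 8 genes of the SRF list, 3 were higher and 2 lower in parental cells at 8 h (median 0.14).

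Heat shock genes, which also respond to handling, moved at the same time. In MYC-ER cells 5 of the 6 listed were higher and 1 lower at 8 h (median 1.92), beside 67.6% of all genes called (32.2% higher). Their sum was 2512 to 2542 CPM without 4-OHT, then 10220 to 10700 (8 h), 4131 to 4388 (24 h) and 1591 to 1709 (48 h). HSPA1A rose by 3.32 (SE 0.088, adjusted p = 2.5e-18), a value that is uncertain because HSPA1B is nearly identical, and HSPB1 fell by 0.73 (SE 0.11, adjusted p = 4.67e-06). The parental sum was between 3210 and 4901 CPM over all times. The part of handling stress in the 8 h rise of the early genes was not tested.

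The genes most like 4 of the members were found by Pearson's r between the 8 group means of log2 CPM, over 10397 genes with at least 10 CPM in their highest group. The 8 means come from shared libraries and r is given as a description. EGR1 was closest to ETV5 (0.996), an ETS factor known as an ERK output, then SLC2A9 (0.995) and MRGPRX3 (0.994). FOSL1 was closest to RAC1 (0.998), PLSCR3 (0.996) and S100A11 (0.993), and FOS to PXN (0.983), RABGEF1 (0.982) and PEX3 (0.981). JUN had no match as near, with SLX4IP at 0.899, IPP at 0.873 and PRSS16 at 0.852.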

How the data were processed

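Poly(A)-selected RNA from the 24 libraries was sequenced as 150-base paired reads from a kit that marks strand, per the labels' protocols. The submitters' processing notes name Trimmomatic 0.39, STAR, StringTie 2.1.3b and build GRCh38. The deposited table holds counts per gene, whole numbers and not normalised. If they were derived from StringTie coverage they are estimates of read numbers. The annotation release, strand use and treatment of multimapping reads are not given in the sources used here. Gene positions and exon lengths came from GENCODE 29 (GRCh38), and promoters from RefSeq.

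Of 60668 rows, 60295 matched a symbol. The filter filterByExpr kept 22158 genes. edgeR 4.0.16, run in R 4.3.3 with TMM factors, estimated 8 group means from the 24 libraries together. Each contrast used its two-sided quasi-likelihood F test. Benjamini-Hochberg adjustment covered all genes tested, and 0.05 was the threshold. The spread between replicates beyond counting noise had a common coefficient of variation of 0.151 in edgeR. The SE is the absolute log2 change divided by the root of F. Log2 CPM used a prior count of 2. Libraries held 136860029 to 182438505 counts. The smallest group mean of a member, EGR3 at 24 h in MYC-ER cells, rests on 39 to 78 counts per library.

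The members and lists were chosen with earlier results of these data known. All 10 members are named. Of each pathway list, the genes with the largest rise and fall past the threshold at 8 h in MYC-ER cells are named, given 1 CPM in some group, and the 3 genes most like FOS, FOSL1, JUN and EGR1. MMP13 was named after its values were seen. The 33 alternatives were other scalings (RLE, library size alone, upper quartile), no filter, DESeq2 1.42.0, a minimum of 10 counts in each library, only the groups compared, a replicate block, removal of GC and length trends (lowess, span 0.3, 2 passes), and leaving out each library.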

Additional observations from a re-analysis of the deposited data

Results flagged for a closer look

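The 4-OHT response of a member was flagged where it differed between the MYC-ER and parental lines by the test of the difference itself (edgeR's line by time interaction, adjusted p under 0.05), which held for 24 of 30 tests. At 8 h the log2 interaction, MYC-ER minus parental, was 3.91 for IER3, 3.38 for FOSL1, 3.15 for EGR1, 1.64 for FOSB, 1.35 for EGR3, 0.77 for FOS and 0.65 for JUNB. It was -1.34 for FOSL2 and -0.55 for JUN.

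At 24 h it was 2.42 for EGR1, 1.91 for FOSB, 1.86 for IER3, 0.68 for JUND and 0.59 for FOSL1, and -2.06 for FOS, -1.35 for FOSL2 and -0.65 for JUNB. JUNB thus changed sign between 8 and 24 h, as did FOS.

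At 48 h it was 2.49 for IER3, 1.76 for EGR1, 0.86 for FOSB, 0.67 for JUND and 0.65 for FOSL1, and -1.60 for FOS and -1.26 for FOSL2. The values of FOSL1 and JUND at 24 and 48 h, and of JUNB at 8 h, lost their calls with GC and length trends removed, and JUND at 8 h (-0.864), JUN at 24 h (-0.322) and JUNB at 48 h (-0.427) gained one.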

How the results depend on the processing

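Of 150 member by contrast values, 109 were called, and 88 of these kept their call and direction under all 33 alternatives. Removing GC and length trends reversed 6 calls, all in parental cells: JUNB at 8 h (0.123), 24 h (0.020) and 48 h (0.102), JUND at 24 h (0.073) and 48 h (0.063) and FOSL1 at 48 h (0.022). It also reversed 7 values that were not called: parental FOSB at 8 h (0.124) and 48 h (0.064), parental IER3 at 48 h (0.405), the JUNB interaction at 48 h (-0.427), and the line difference of JUND at 0 h (0.514), FOSL1 at 8 h (0.062) and JUN at 24 h (0.077). The cause was not tested.

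The count of members called in parental cells at 24 h was 3 with only the groups compared and 3 with upper-quartile scaling, and 3 to 5 with a library left out. The count at 8 h was 3 with only the groups compared. The other reversals concern small changes that were not called. They were, under upper-quartile scaling, parental EGR3 (-0.024) and FOSL1 (-0.030) at 24 h, parental JUN at 48 h (-0.004), and the line difference of JUN at 24 h (0.049) and JUND at 0 h (0.044). Under library size alone they were parental FOSB at 8 h (0.006), MYC-ER JUN at 48 h (0.095), and the line difference of JUN at 24 h (0.072) and JUND at 0 h (0.038). The line difference of FOSL1 at 8 h was 0.018 under DESeq2, 0.028 under RLE scaling and 0.008 without a filter. For JUND from 24 to 48 h in MYC-ER cells the value was -0.004 under DESeq2, -0.009 under RLE scaling and -0.024 with only the groups compared, and its line difference at 0 h was 0.007 with at least 10 counts in every library.

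With a library left out, signs changed for EGR3 in MYC-ER cells at 48 h (-0.198 to 0.302) and in parental cells at 24 h (-0.102 to 0.323), parental FOSB at 8 h (-0.089 to 0.075), parental IER3 at 48 h (-0.156 to 0.079) and the JUNB interaction at 48 h (-0.033 to 0.151). They also changed for JUND in MYC-ER cells at 24 h (-0.024 to 0.192) and from 24 to 48 h (-0.054 to 0.122), and for the line difference of JUND at 0 h (-0.188 to 0.147) and FOSL1 at 8 h (-0.060 to 0.060). Over all genes, library size alone raised the median change and the share of higher calls by over 10 points from 8 to 24 h in MYC-ER cells (median 0.050 to 0.256, share 51.2% to 67.8%), at 48 h against 0 h (0.029 to 0.191, 53.0% to 73.8%), between the lines at 24 h (47.6% to 60.7%) and 48 h (48.2% to 59.8%), and in the 48 h interaction (52.5% to 63.5%). Upper-quartile scaling gave 58.4% and 59.7% between the lines at 24 and 48 h. With only the groups compared, the genes called in parental cells were 1452 in place of 6870 at 8 h, 4923 in place of 9503 at 24 h and 3274 in place of 8978 at 48 h.

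Libraries with the same replicate number showed no shared deviation. Of 84 same-numbered pairs, 0 had deviations correlated above 0.1 (-0.078 to 0.094), and 10 of 24 libraries correlated best with their own number. This does not settle whether the cultures were paired. The replicate block changed 1 of the 150 verdicts, parental JUN at 8 h (0.237, adjusted p = 0.0401).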
